A study of Arabidopsis thaliana with 8 samples.

Results

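IRT1 (AT4G19690) and IRT2 (AT4G19680) are neighbouring genes on chromosome 4 of Arabidopsis thaliana that encode iron importers of the ZIP family. The members were the probe sets whose annotated locus equalled exactly 1 of these locus codes, which gave 2 probe sets for 2 genes out of 22746 tested probe sets and 21019 genes with a probe set of their own. Neither probe set was annotated to any further gene. The values are probe-set intensities from single-colour arrays hybridised with root RNA, 1 array per RNA sample, 8 arrays in all.

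The arrays fell into 4 groups of 2 biological replicates. They were uri mutant roots and wild-type (WT) roots without iron, written uri −Fe and WT −Fe, and uri mutant roots and WT roots with iron, written uri +Fe and WT +Fe. All plants grew on B5 medium for 14 days before a transfer of 3 days. The −Fe plates held 300 µM ferrozine, a chelator of ferrous iron, and no added iron, and the +Fe plates held 50 µM Fe(III)-EDTA. The labels name the uri mutant without an allele or a background accession.

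Arabidopsis roots take up iron by reduction. Protons released by the plasma-membrane pump AHA2 and secreted coumarins make ferric iron soluble, the ferric chelate reductase FRO2 reduces it, and IRT1 carries the ferrous iron into epidermal cells. IRT1 is the main importer of the iron-starved root and also admits zinc, manganese, cobalt and cadmium, while IRT2 is a close relative that transports iron and zinc in yeast, is made in the root epidermis and cannot replace IRT1. Both genes are induced by iron deficiency through the basic helix-loop-helix (bHLH) factor FIT, which pairs with bHLH38, bHLH39, bHLH100 or bHLH101, and URI is a bHLH factor that acts upstream of these partners.

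The mutated gene was measured first. URI had log2 intensities of 8.52 and 8.62 on the arrays labelled uri −Fe, against 8.64 and 8.60 on WT −Fe arrays. With iron it had 7.84 and 7.64 in uri, against 8.73 and 8.78 on WT +Fe arrays. The URI level therefore set uri apart from WT with iron (log2 change −1.02 ± 0.118, moderated SE, adjusted p = 0.000752) but not without iron (−0.05 ± 0.118, adjusted p = 0.804). The labels do not say where the mutation lies in relation to the URI probe set, so URI did not check the 2 arrays labelled uri −Fe. The comparison of genotypes without iron, the iron response of uri and its difference from the WT response all rest on these labels.

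The 9 root epidermis and root hair markers and the 4 inner root markers were measured, and none lay under the lower quartile of all probe sets (4.66 to 4.80 log2) in any group. The same held for the 6 measured shoot markers, so this level does not tell root from shoot. The 6 measured shoot markers summed to 4582 to 4970 linear units on the arrays labelled uri −Fe, against 1708 to 1744 on WT −Fe arrays, and to 2302 to 2480 on uri +Fe arrays, against 2685 to 2861 on WT +Fe arrays. Replicates correlated at 0.9938 to 0.9978 and array medians lay between 119.09 and 128.06 linear units. The array numbers in the labels run in 2 blocks, 1 per iron supply, so iron supply and array block cannot be told apart, whereas each comparison of genotypes lies within 1 block.

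IRT1 rose steeply without iron in both genotypes, and less in uri. Its linear intensities were 1195 and 833 on the arrays labelled uri −Fe, 3687 and 3895 on WT −Fe arrays, 49.4 and 40.5 on uri +Fe arrays, and 33.4 and 47.8 on WT +Fe arrays. The 4 −Fe arrays all lay far above the 4 +Fe arrays, the 2 −Fe groups did not overlap, and the 2 +Fe groups did. Group means were 1014 ± 256 in uri −Fe, 3791 ± 148 in WT −Fe, 45.0 ± 6.33 in uri +Fe and 40.6 ± 10.2 in WT +Fe (SD, n = 2 each).

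Tests were made on log2 intensities with limma over all 22746 probe sets. In uri, IRT1 averaged 9.96 ± 0.369 without iron and 5.48 ± 0.204 with iron (log2, SD, n = 2), a change of 4.48 ± 0.193 (SE, 95% interval 4.06 to 4.90, 22.3-fold, adjusted p = 2.19e-08). In WT, IRT1 averaged 11.89 ± 0.0562 without iron and 5.32 ± 0.367 with iron, a change of 6.57 ± 0.193 (6.15 to 6.99, 94.9-fold, adjusted p = 7.66e-10). These were the rank 3 and rank 2 rises among all probe sets in uri and in WT. With 32 linear units added before log2 the changes were smaller, 3.74 in uri and 5.73 in WT, and both were still called. In uri 33.1% of all probe sets were called (15.1% higher and 18% lower), and in WT 5.65% (3.51% higher and 2.14% lower).

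**Figure D1:**
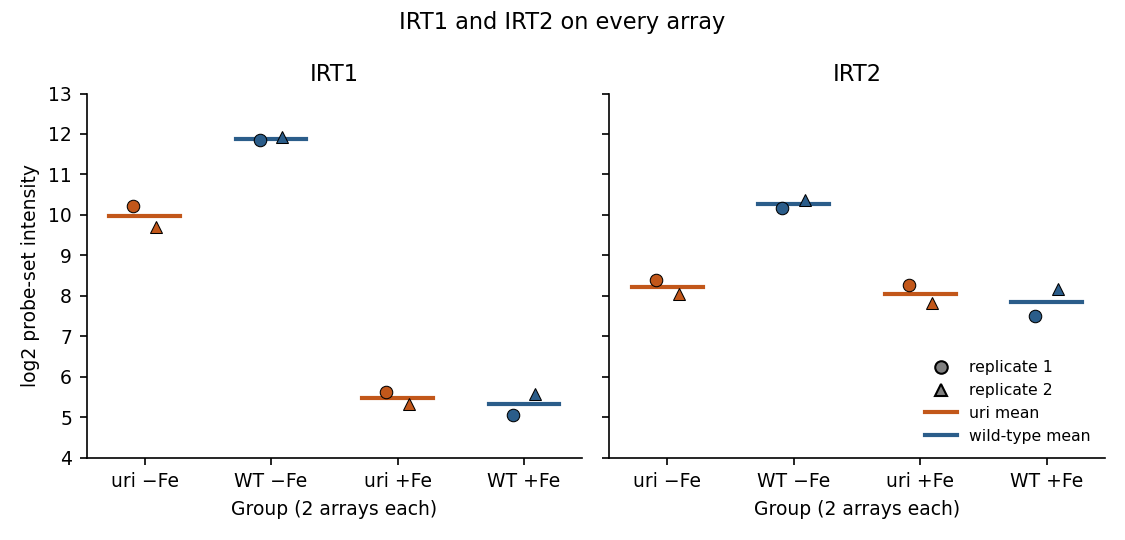
log2 probe-set intensity of IRT1 (left) and IRT2 (right) on each of the 8 arrays, by group, with circles and triangles for replicates 1 and 2 and a bar for the mean of each group. IRT1 lay between 9.70 and 11.93 on the −Fe arrays and between 5.06 and 5.63 on the +Fe arrays, while IRT2 on the arrays labelled uri −Fe (8.39 and 8.04) lay among the +Fe arrays.

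IRT2 rose without iron in WT, and in uri its −Fe and +Fe arrays overlapped. Its linear intensities were 335 and 263 on the arrays labelled uri −Fe, 1155 and 1323 on WT −Fe arrays, 308 and 226 on uri +Fe arrays, and 182 and 287 on WT +Fe arrays. The 2 WT −Fe arrays stood apart from the other 6, which overlapped across their 3 groups. Group means were 299 ± 50.4 in uri −Fe, 1239 ± 119 in WT −Fe, 267 ± 58.0 in uri +Fe and 235 ± 74.4 in WT +Fe (SD, n = 2 each).

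On the log2 scale IRT2 averaged 8.21 ± 0.244 in uri without iron and 8.04 ± 0.317 in uri with iron, a change of 0.17 ± 0.209 (SE, 95% interval −0.28 to 0.63, adjusted p = 0.592). In WT it averaged 10.27 ± 0.139 without iron and 7.84 ± 0.465 with iron, a change of 2.43 ± 0.209 (1.98 to 2.89, 5.40-fold, adjusted p = 1.55e-05). The interval in uri does not show that IRT2 was unresponsive there, but it ends well below the interval in WT. IRT2 held rank 32 among the rises in WT and rank 6285 in uri.

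Both genes had the same order of group means, WT −Fe above uri −Fe above uri +Fe above WT +Fe. For IRT1 the WT −Fe, uri −Fe and uri +Fe levels each differed from the next by an adjusted p under 0.05, and uri +Fe and WT +Fe did not. For IRT2 only the step between uri −Fe and WT −Fe passed, and the other 3 groups were not separated from their neighbours in the order.

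Without iron, both importers were lower in uri than in WT, by similar factors. IRT1 was 3.80-fold lower (log2 change −1.93 ± 0.193, SE, 95% interval −2.35 to −1.51, adjusted p = 1.47e-05) and IRT2 4.16-fold lower (−2.06 ± 0.209, −2.51 to −1.60, adjusted p = 1.62e-05). In this comparison 26.6% of all probe sets were called (12.2% higher and 14.4% lower). On the linear scale the uri −Fe mean was 26.3% of the WT −Fe mean for IRT1 and 24.0% for IRT2, taken as the antilog of the mean log2 values.

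Markers of the tissue that makes both importers moved in the same comparison. Of the 9 epidermis and root hair markers, 4 were lower in uri −Fe than in WT −Fe (LRX1 −1.11, PRP3 −0.80, COBL9 −0.75, GL2 −0.67), none was higher and 5 did not pass, with a median log2 change of −0.50 against 0.02 over all probe sets. PRP3 was not called without uri −Fe replicate 1 (adjusted p = 0.0512). The summed level of the 9 was 3380 to 3617 linear units on the arrays labelled uri −Fe, against 5415 to 5673 on WT −Fe arrays, and 5243 to 6290 on uri +Fe arrays, against 4457 to 5948 on WT +Fe arrays. All 6 measured shoot markers were higher in uri −Fe, with a median of 1.55. Of the 4 inner root markers 1 was lower, 1 was higher and 2 did not pass, with a median of 0.17. The lower one, CASP1, averaged 11.69 log2 in uri −Fe and 12.35 in WT −Fe. Over all probe sets 14.4% were lower and 12.2% higher in this comparison. In the iron response of uri 8 of the 9 epidermis markers fell (median −0.65) and 5 of the 6 shoot markers rose (0.98). There 18% of all probe sets fell and 15.1% rose. In WT limma called 0 of the 9, with 0 at an unadjusted p under 0.05, while 4 of the 6 shoot markers fell (−0.81). Of all probe sets 2.14% fell and 3.51% rose in WT. Of the 4 inner root markers 1 rose and 0 fell in uri, and limma called 0 in WT. With iron limma called 1 of the 4 inner and 1 of the 6 shoot markers, both lower in uri, and 0 of the 9 epidermis markers. Of all probe sets 3.12% were called with iron. The part of these marker changes in the IRT1 and IRT2 results was not tested. In RNA from whole roots fewer cells of a type and less RNA per cell cannot be told apart.

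With iron, neither importer differed between the genotypes by more than the spread between replicates. The log2 change, uri +Fe minus WT +Fe, was 0.16 ± 0.193 for IRT1 (SE, 95% interval −0.26 to 0.58, adjusted p = 0.758) and 0.20 ± 0.209 for IRT2 (−0.25 to 0.66, adjusted p = 0.713). The call rate over all probe sets was 3.12%. The intervals allow a difference of either sign at this number of arrays.

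The iron response itself differed between the genotypes for both genes. The interaction, the change in uri minus the change in WT, was −2.09 ± 0.273 for IRT1 (SE, 95% interval −2.68 to −1.50, adjusted p = 0.000201) and −2.26 ± 0.296 for IRT2 (−2.90 to −1.62, adjusted p = 0.000202). Over all probe sets 20.4% were called (9.6% higher and 10.8% lower), and the members held ranks 71 and 53 among the most negative. The comparisons share arrays, so this result is not separate from the lower levels of both genes in uri without iron.

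**Figure D2:**
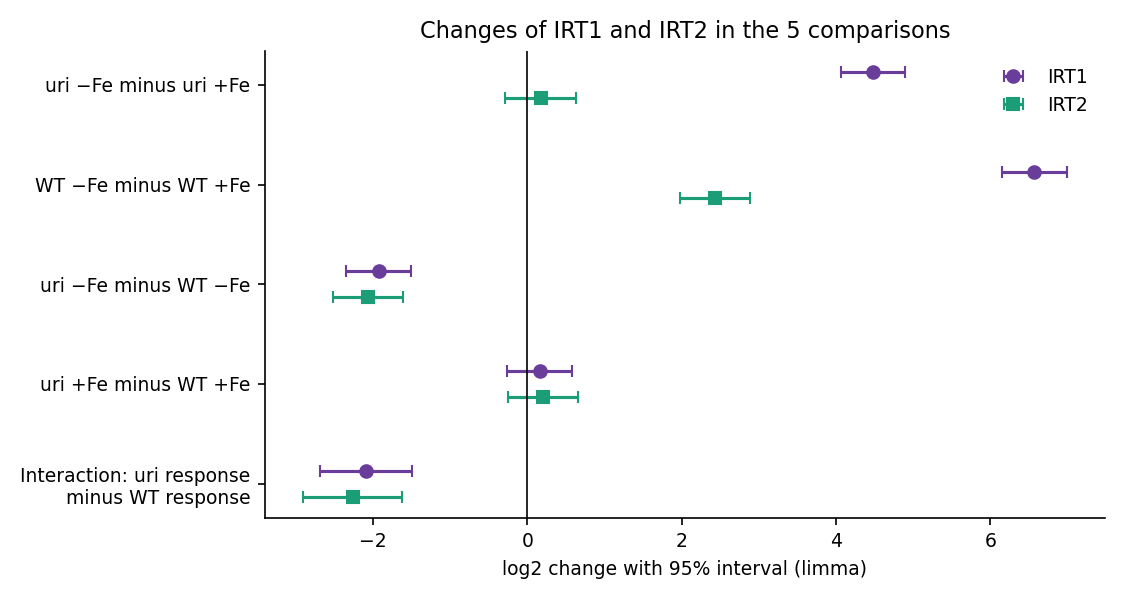
log2 changes of IRT1 (circles) and IRT2 (squares) in the 5 comparisons, with 95% intervals from limma. The genes overlap in both genotype comparisons and in the interaction, and stand apart in both iron responses, where IRT2 in uri (0.17) includes 0.

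The interaction was of similar size for both importers, while their WT responses were not. For IRT1 the change in uri was 68.2% of the WT log2 change (4.48 against 6.57), and in linear intensity, −Fe minus +Fe, uri had a difference of 969 units and WT of 3750 units, or 25.8%. For IRT2 no share is given, since the uri change of 0.17 has an interval that includes 0 and ran from −0.05 to 0.40 when 1 array was left out, against 2.43 in WT.

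The per-array difference log2 IRT1 minus log2 IRT2 was used to test whether the 2 probe sets changed unequally; its level has no meaning, because the probe sets differ. It was 1.84 and 1.66 on the arrays labelled uri −Fe, 1.67 and 1.56 on WT −Fe arrays, −2.64 and −2.48 on uri +Fe arrays, and −2.45 and −2.59 on WT +Fe arrays. The 4 −Fe arrays lay above the 4 +Fe arrays with no overlap. The mean difference was 4.22 log2 units (exact permutation test, two-sided, p = 0.0286, which is the smallest p that 4 against 4 arrays allow).

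The excess of IRT1 over IRT2 in the iron response was nearly the same size in each genotype, 4.31 in uri and 4.13 in WT, and these differed by 0.17. Between genotypes the per-array difference moved by 0.13 without iron and by −0.04 with iron. These differences between genotypes were not tested. An exact test of 2 arrays against 2 could not go below p = 0.333.

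The other ZIP transporters, which carry mainly zinc, iron and manganese, were called in both directions in their iron response. Of 15 listed, 14 had a probe set of their own and ZIP8 was not in the annotation used here. In uri, 3 were called higher without iron (ZIP3 0.57, ZIP1 0.40, ZIP4 0.36), 2 lower (ZIP2 −1.12, ZIP11 −0.80) and 9 did not pass. That is 5 of 14 called, near the 33.1% of all probe sets. The 3 higher calls fell to 1 without uri +Fe replicate 2 and to 0 without uri −Fe replicate 2. The median log2 change of the 14 was 0.05 in uri and −0.09 in WT, against −0.01 and −0.03 over all probe sets.

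In WT, ZIP9 alone was called higher without iron (0.92 ± 0.139, SE, adjusted p = 0.00157), ZIP5 (−0.95 ± 0.139, adjusted p = 0.0012) and ZIP2 (−0.71 ± 0.136, adjusted p = 0.00803) were lower, and 11 did not pass, so 3 of 14 were called, against 5.65% of all probe sets. The ZIP2 call was lost without WT −Fe replicate 1, WT −Fe replicate 2 or WT +Fe replicate 2 (adjusted p = 0.0691, 0.0933 and 0.0632). ZIP9 thus changed in the direction of IRT1 and IRT2. In uri, ZIP9 gave −0.28 (adjusted p = 0.146, called under 1 of 15 alternatives).

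ZIP9 log2 intensities were 6.94 and 6.57 on the arrays labelled uri −Fe, 7.69 and 7.72 on WT −Fe arrays, 7.00 and 7.08 on uri +Fe arrays, and 6.69 and 6.89 on WT +Fe arrays. Like IRT2, only its WT −Fe arrays stood above the other 6. ZIP5 gave 9.42 and 9.57 on the arrays labelled uri −Fe, 8.35 and 8.47 on WT −Fe arrays, 9.31 and 9.06 on uri +Fe arrays, and 9.21 and 9.52 on WT +Fe arrays, so its WT −Fe arrays were the lowest of the 8.

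Without iron, 4 of the 14 were higher in uri than in WT (ZIP5 1.08, ZIP4 1.07, ZIP1 0.73 and IRT3, a zinc and iron transporter, 0.41) and 2 were lower (ZIP9 −0.95, ZIP11 −0.64). Over all probe sets 12.2% were higher and 14.4% lower. The IRT3 call was lost without uri −Fe replicate 1, WT −Fe replicate 1 or WT −Fe replicate 2 (adjusted p = 0.223, 0.1 and 0.212). With iron, limma called 0 of the 14, and 3 had an unadjusted p under 0.05. The interaction was called for ZIP5 (1.26), ZIP4 (0.74) and ZIP1 (0.54), all opposite in sign to IRT1 and IRT2, and for ZIP9 (−1.20) and ZIP11 (−0.93). It was called for 20.4% of all probe sets.

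The ZIP1 interaction was called only with uri −Fe and WT −Fe complete and with replicate 2 of each +Fe group (adjusted p 0.103 to 0.151 without any 1 of these 6 arrays), and a replicate block also ended the call (0.0658). The ZIP4 interaction was not called without WT −Fe replicate 2 (adjusted p = 0.053). Of the members called in none of the 5 comparisons with all arrays, ZIP6 (a change of 0.08 in uri and −0.12 in WT), IAR1 (0.14 and −0.05) and ZTP29 (−0.15 and 0.33) were well above the lower quartile, while ZIP7, at 3.47 to 3.89 log2, and ZIP10, at 3.81 to 4.34, lay below it on every array, and ZIP12 lay around it, at 4.56 to 5.02. ZTP29 was called lower in uri without iron under 9 of 15 alternatives (adjusted p 0.0157 to 0.0493, 0.0507 with the settings used here), and ZIP10 lower in WT without iron under 2 (0.0496).

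**Figure D3:**
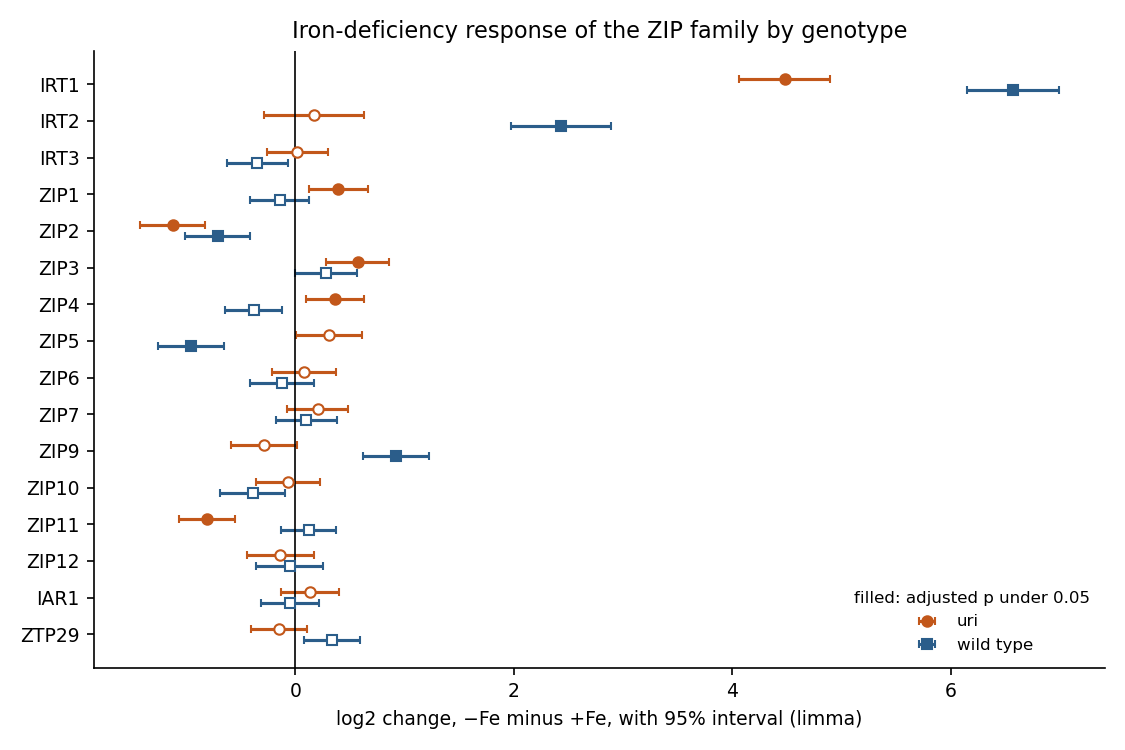
log2 change without iron for IRT1, IRT2 and the 14 other measured ZIP genes in uri (circles) and WT (squares), −Fe minus +Fe, with 95% intervals from limma and filled symbols at an adjusted p under 0.05. IRT1 exceeds every other gene drawn in both genotypes, and IRT2, next in WT at 2.43, falls among the rest of the family in uri.

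In a list of genes that work with IRT1 in iron uptake, most measured members rose with it in WT. The list held the proton pumps AHA2 and AHA7, the manganese and iron importer NRAMP1, the coumarin enzymes F6'H1, S8H and CYP82C4, the glucosidase BGLU42, the exporter ABCG37 and the factors MYB10 and MYB72, so 10 of 11 were measured, and FRO2 was not in the annotation used here. In WT 8 of 10 rose and 0 fell, with a median log2 change of 3.02, where 3.51% of all probe sets rose and 2.14% fell. In uri 5 rose, 3 fell and 2 did not pass, with a median of 0.42, where 15.1% of all probe sets rose and 18% fell.

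Their responses in uri ranged widely. CYP82C4, which makes the coumarin sideretin, rose by 4.23 in uri and by 6.92 in WT. Its +Fe arrays, at 3.20 to 3.67 log2, all lay under the lower quartile, so the sizes are uncertain, and with the offset they were 2.60 and 4.97. MYB72, a transcription factor of coumarin secretion, gave 0.14 (adjusted p = 0.559) in uri and 5.40 in WT, and F6'H1, the enzyme of the scopoletin precursor, gave 0.19 (adjusted p = 0.298) in uri and 2.81 in WT. With the offset MYB72 changed by 4.15 in WT. S8H, which makes fraxetin, gave 0.84 in uri and 5.23 in WT, ABCG37 gave 0.96 and 2.23, and MYB10 gave 0.64 and 3.79, and with the offset the WT changes were 4.37 for S8H and 2.91 for MYB10.

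AHA7, a proton pump, fell by 1.29 in uri and rose by 1.25 in WT, and BGLU42, which releases coumarins from their glucosides, fell by 0.60 in uri and rose by 3.24 in WT. AHA2 fell by 0.41 in uri, a call that needed both uri +Fe replicate 1 and uri −Fe replicate 2 (adjusted p = 0.0537 and 0.13 when each was left out), and gave 0.39 in WT (adjusted p = 0.0729, called under 2 of 15 alternatives). NRAMP1 went against the list, with 1.59 in uri and 0.35 in WT (adjusted p = 0.124, called under 1 of 15).

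Between genotypes without iron, 9 of the 10 were lower in uri, IRT1 and IRT2 not counted, and NRAMP1 was higher (1.32). The median was −2.49 against 0.02 over all probe sets, of which 14.4% were called lower and 12.2% higher. The log2 changes were −5.11 for MYB72, −4.43 for S8H, −3.57 for BGLU42 and −3.43 for MYB10, each further from 0 than those of IRT1 and IRT2. MYB72 lay near the lower quartile on the uri −Fe arrays (4.74 and 4.78 log2). With the offset the changes were −4.04 for MYB72 and −2.72 for MYB10. With iron limma called 0 of 10, and 3 had an unadjusted p under 0.05. The interaction had the same split, 9 lower and 1 higher, where 10.8% of all probe sets were lower and 9.6% higher.

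Among 27 listed regulators of iron uptake, 21 had a probe set of their own, and FIT, bHLH38, bHLH100, bHLH11, IMA2 and IMA3 were not in the annotation used here. In uri 12 rose, 1 fell and 8 did not pass (15.1% of all probe sets rose and 18% fell), and in WT 8 rose, 0 fell and 13 did not pass (3.51% rose and 2.14% fell). The single fall in uri, of bHLH34 (−0.53), was not called under 6 of the 15 alternatives run. Median log2 changes were 0.40 in uri and 0.28 in WT.

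The measured partners of FIT were not equally affected. bHLH101 gave log2 intensities of 8.25 and 7.73 on the arrays labelled uri −Fe, 9.25 and 9.28 on WT −Fe arrays, 5.16 and 5.04 on uri +Fe arrays, and 5.01 and 5.41 on WT +Fe arrays. bHLH39 gave 6.34 and 6.14 on the arrays labelled uri −Fe, 10.07 and 10.03 on WT −Fe arrays, 4.11 and 4.19 on uri +Fe arrays, and 4.40 and 4.36 on WT +Fe arrays. For both, all −Fe arrays lay above all +Fe arrays and the 2 −Fe groups did not overlap. bHLH101 rose by 2.89 in uri and 4.05 in WT, and bHLH39 by 2.095 in uri and 5.67 in WT. bHLH39 lay under the lower quartile on every +Fe array, and with 32 linear units added before log2 its changes were 1.12 in uri and 4.37 in WT, and those of bHLH101 were 2.11 and 3.22.

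BTSL1, BTSL2 and BTS, ubiquitin ligases that limit the iron response, rose in WT (2.64, 1.78 and 1.00) and in uri gave 0.33, 0.35 and 0.34 (adjusted p = 0.058, 0.13 and 0.0982). The other BTSL1 probe set was called higher in uri (0.45, adjusted p = 0.0342), and the BTSL1 probe set used here was called there under 5 of 15 alternatives (adjusted p 0.0221 to 0.0429). IMA1, a small peptide that promotes iron uptake, rose in both, by 1.26 in uri and 2.67 in WT, or by 0.65 and 1.57 with the offset. PYE, a bHLH repressor, gave −0.25 in uri (adjusted p = 0.155) and 0.70 in WT, where its call was lost without WT −Fe replicate 1 (adjusted p = 0.0785).

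Without iron 8 of the 21 regulators were lower in uri and 6 were higher, where 14.4% of all probe sets were lower and 12.2% higher. Among the lower were bHLH39 (−3.81), BTSL1 (−2.49), PYE (−1.35) and bHLH101 (−1.28). The 6 higher calls fell to 3 without WT −Fe replicate 1, to 3 without WT −Fe replicate 2 and to 2 without uri −Fe replicate 1. With iron URI was the only regulator called. The interaction was lower for 7 and higher for 4, and 10 did not pass, where 10.8% of all probe sets were lower and 9.6% higher.

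Because IRT1 admits other divalent metals, 9 genes that store or move them were examined, and all 9 were measured. In uri 8 rose and 1 fell, where 33.1% of all probe sets were called, and in WT 5 rose, 1 fell and 3 did not pass, where 5.65% were. The 8 calls in uri became 5, 4 and 5 without uri +Fe replicate 1, uri −Fe replicate 1 and uri −Fe replicate 2. Median log2 changes were 0.60 in uri and 0.90 in WT.

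The vacuolar zinc transporter MTP3 rose by 1.95 in uri and 4.06 in WT, the manganese transporter MTP8 by 0.61 in uri and 3.81 in WT (2.70 in WT with the offset), the vacuolar zinc and cadmium pump HMA3 by 0.60 in uri and 3.04 in WT, and FPN2, which takes cobalt and nickel into the vacuole, by 1.38 in uri and 2.62 in WT. The uri calls of MTP8 and of HMA3 were lost without uri −Fe replicate 1 (adjusted p = 0.0964 and 0.094), and also without uri +Fe replicate 2 for MTP8 (0.0687) and uri +Fe replicate 1 for HMA3 (0.0592). HMA2, a zinc pump of the vascular tissue, fell by 1.62 in uri and by 0.95 in WT, and its relative HMA4 gave 1.05 in uri and −0.24 in WT (adjusted p = 0.293).

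Without iron 5 of the 9 were lower in uri than in WT (MTP8 −3.28, HMA3 −2.39, MTP3 −1.97, FPN2 −1.48 and NRAMP4 −0.51) and 2 were higher (NRAMP3 0.98 and HMA4 0.96). With the offset MTP8 gave −2.45. Of all probe sets 14.4% were lower and 12.2% higher. With iron limma called 0 of 9, and 3 had an unadjusted p under 0.05. By the interaction 5 were lower and 1 was higher, where 10.8% of all probe sets were lower and 9.6% higher.

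**Figure D4:**
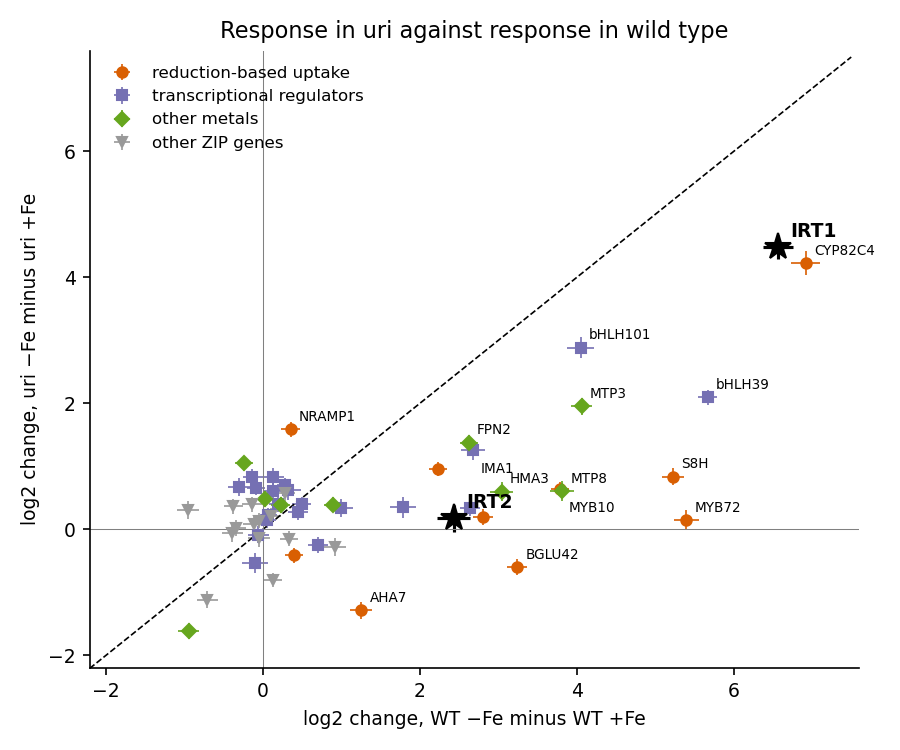
log2 change without iron in uri (vertical axis) against that in WT (horizontal axis) for IRT1 and IRT2 (stars) and the uptake, regulator, metal and ZIP lists, each with its SE. The dashed line marks equal responses. IRT1 (4.48 in uri, 6.57 in WT) lies beside CYP82C4, and IRT2 (0.17 in uri, 2.43 in WT) lies near 0 on the uri axis beside F6'H1.

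The genes that act on the IRT1 protein changed in both directions. SNX1 and FREE1 sort IRT1 in endosomes, CIPK23 with the calcium sensors CBL1 and CBL9 phosphorylates it, and PATL2 is a membrane protein that binds it. Of 10 listed, 6 were measured by a probe set of their own, UBC35 and UBC36 only by shared ones, and the ligase IDF1 and EHB1 were not in the annotation used here. In uri 1 rose (SNX1 0.40) and 2 fell (CBL1 −0.83, CBL9 −0.66), and in WT 1 rose (PATL2 0.61) and 5 did not pass, where 33.1% of all probe sets were called in uri and 5.65% in WT.

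Without iron PATL2 (−0.98), CBL9 (−0.48) and CBL1 (−0.46) were lower in uri and CIPK23 (0.40) was higher, so 4 of 6 were called, against 26.6% of all probe sets. The 4 calls fell to 1 or 2 when any 1 of the −Fe arrays was left out, and that of PATL2 was kept throughout. The CBL9 call was also lost with a replicate block (adjusted p = 0.0662), median centring (0.0679) and the offset (0.0834), and the CBL1 call with median centring (0.0577) and quantile normalization (0.061). The PATL2 call in WT was lost without WT −Fe replicate 1, WT −Fe replicate 2 or WT +Fe replicate 1. In uri the call of SNX1 was lost without replicate 2 of either uri group and that of CBL9 without replicate 1 of either, whereas that of CBL1 held. With iron limma called 0 of 6, with 0 at an unadjusted p under 0.05.

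The genes most like each importer were listed by Pearson's r of log2 intensity over the 8 arrays, among 1780 genes whose group means spanned at least 1 log2 unit. These r values are descriptions, because all genes share the 8 arrays, their 4 groups and their 2 blocks. For IRT1 the 8 closest were bHLH101 (0.9986), AT4G19370 (0.9983), the phloem lectin gene PP2-A6 (0.9951), CYP82C4 (0.9941), AT1G73120 (0.9933), the receptor kinase gene AT1G51860 (0.9915), PP2-B6 (0.9900) and AT3G47040 (0.9881). All 8 were higher on the −Fe arrays of both genotypes, which their choice by likeness favours.

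For IRT2 the 8 closest were the kinase genes AT5G35580 (0.9927) and AT1G77280 (0.9888), AT1G49000 (0.9858), the phloem iron transporter OPT3 (0.9839), F6'H1 (0.9822), the phosphofructokinase PFK1 (0.9821), the amino acid transporter gene AT5G38820 (0.9800) and AT2G42750 (0.9787). IRT1 and IRT2 correlated at 0.8174, which placed IRT2 at rank 120 for IRT1 and IRT1 at rank 152 for IRT2. No gene stood on both lists. At a correlation of 0.8174 no gene can reach r values as high as these with both, so this is no separate result.

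The 8 genes like IRT2 had log2 changes of 0.03 to 0.60 in uri and 1.03 to 4.15 in WT. The 8 like IRT1 had changes of 0.84 to 4.23 in uri and 1.13 to 6.92 in WT. Both patterns follow in part from the choice of these genes by likeness on the same 8 arrays. OPT3 gave log2 intensities of 6.17 and 5.99 on the arrays labelled uri −Fe, 9.17 and 9.18 on WT −Fe arrays, 5.60 and 5.36 on uri +Fe arrays, and 5.29 and 5.55 on WT +Fe arrays. Its WT −Fe arrays were far above the rest, as for IRT2, although its uri −Fe arrays lay above all 4 +Fe arrays.

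The genes beside the pair were measured in the same way. Of the 5 genes on each side of the IRT2 and IRT1 pair, 8 of 10 were measured, and AT4G19645 and AT4G19700 (RING in the plot of neighbouring genes) had no probe set of their own. In uri 2 of 8 were called higher, where 15.1% of all probe sets were, namely NPR4 (0.54, adjusted p = 0.00232), a salicylate receptor, and AT4G19720 (0.48, adjusted p = 0.0193), a glycosyl hydrolase gene. In WT 1 of 8, AT4G19720, was called higher (0.72, adjusted p = 0.00925), where 3.51% of all probe sets were, and none was lower. Nothing particular to the neighbours is read from these counts.

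The call of AT4G19720 in WT was lost without WT −Fe replicate 1, WT −Fe replicate 2 or WT +Fe replicate 1 (adjusted p = 0.101, 0.0774 and 0.0852), and in uri without 3 of its 4 arrays. The nearest measured gene on the IRT2 side, AT4G19670, gave 0.23 in uri (adjusted p = 0.164) and 0.21 in WT (adjusted p = 0.388). Between genotypes without iron, NPR4 (0.38, adjusted p = 0.0233) was the only one of the 8 called, and no call was left when any 1 of the −Fe arrays was taken out (adjusted p 0.098 to 0.157). None of the 8 had a called interaction.

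**Figure D5:**
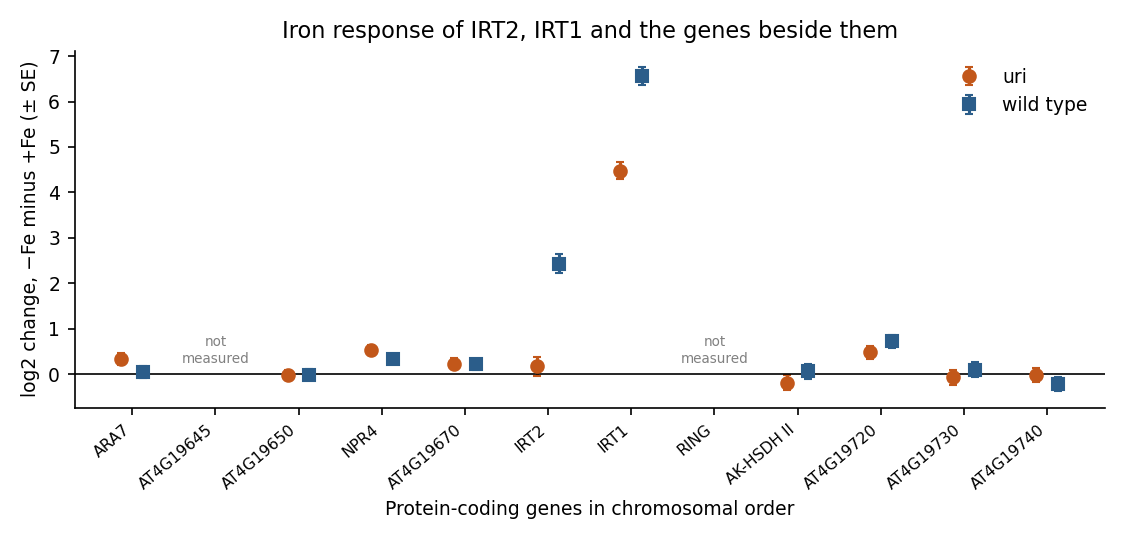
log2 change without iron, −Fe minus +Fe, of IRT2, IRT1 and the 5 protein-coding genes on each side in chromosomal order, in uri (circles) and WT (squares), with SE. The 8 measured neighbours lie between −0.23 and 0.72, and IRT1 stands above all genes drawn in both genotypes.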

How the data were processed

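The deposited values are linear probe-set intensities that the authors made with RMA (robust multi-array averaging) according to the submitters' processing notes; its version and settings and the annotation release are not given in the sources used here. As usually run, RMA evens out the distributions of the arrays and compresses changes of dim probe sets. A second deposited table of the same arrays differed by at most 5e-06 linear units, and it was joined by its own probe-set column because 44 annotation lines stood beside the values of another probe set.

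Of 22810 probe sets, 64 controls were left out. The annotation gave 1 locus for 21180 probe sets, several for 1039 and none for 527, and 20798 of the 21019 genes were found in the RefSeq gene table (TAIR10.1), which supplied names and gene order only. The log2 of each intensity was fitted in limma 3.58.1 (R 4.3.3) with a mean per group over all 8 arrays (lmFit, eBayes, 4 residual degrees of freedom, prior 8.32, prior SD 0.132). The 5 contrasts were two-sided, adjusted by Benjamini-Hochberg over all 22746 probe sets and called at an adjusted p under 0.05, and ± on a change is the moderated SE. A gene with several probe sets was represented by the one with the highest mean. With 2 biological replicates a group, p-values cover the spread between these samples, and the number of arrays limits the precision. The model was also run on simulated data in which few probe sets changed, which does not test it at the call rates seen here.

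The members and gene lists were chosen with earlier results of these data known, so counts over a list are descriptions and no independent support. Named beside the members were the ZIP genes, key regulators, up to 4 called members of each list per comparison, the 8 genes most like each member and the 5 genes on each side. AHA7, ABCG37, F6'H1, MYB10, BTS, BTSL2, IMA1, PYE, NRAMP1, NRAMP4, bHLH34 and some members that were not called stand outside this rule in at least 1 comparison and were named after their values were seen. Alternatives were an offset of 32 linear units, median centring, quantile normalization, a filter on dim probe sets, an intensity trend, the compared groups alone, a replicate block and each array left out.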

Additional observations from a re-analysis of the deposited data

Results flagged for a closer look

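The iron response of 46 results differed between uri and WT by the interaction test (limma, adjusted p under 0.05), where 20.4% of all probe sets were called, and no explanation was tested. Besides IRT1 (−2.09) and IRT2 (−2.26), 44 of the 64 other named genes were called, 34 lower and 10 higher. The 64 were in part named because they were called, were like IRT1 or IRT2, or stood out once their values were seen. Their share of calls was thus raised by the choice and is not comparable with the 20.4%. Negative values mean a smaller or more negative response in uri.

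Among uptake genes the log2 interaction was −5.25 for MYB72, −4.39 for S8H, −3.85 for BGLU42, −3.15 for MYB10, −2.69 for CYP82C4, −2.61 for F6'H1, −2.54 for AHA7, −1.27 for ABCG37, −0.81 for AHA2 and 1.23 for NRAMP1. Among regulators it was −3.57 for bHLH39, −2.30 for BTSL1, −1.41 for IMA1, −1.17 for bHLH101, −0.95 for PYE and 0.97 for URI itself. Among ZIP genes it was 1.26 for ZIP5, 0.74 for ZIP4, 0.54 for ZIP1, −0.93 for ZIP11 and −1.20 for ZIP9.

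Among metal transporters it was −3.21 for MTP8, −2.44 for HMA3, −2.11 for MTP3, −1.25 for FPN2, −0.67 for HMA2 and 1.29 for HMA4, and PATL2 had −0.85. The genes most like IRT1 gave −1.14 for AT4G19370 and −0.76 for PP2-A6. Those most like IRT2 gave −3.79 for AT5G38820, −3.15 for OPT3, −2.01 for AT1G77280, −1.76 for AT1G49000, −1.19 for AT5G35580, −1.08 for PFK1 and −0.80 for AT2G42750, which is what their choice by likeness favours. Markers moved too, with −1.33 for LRX1, −0.98 for PRP3 and −0.72 for COBL9 in the epidermis, and 2.19 for PSBQ2, 2.15 for PSAN, 2.11 for GAPA and 2.00 for LHCB4.1 in shoot tissue.

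The interactions of ZIP1, ZIP4, HMA2, PRP3, COBL9 and AT2G42750 were each lost on leaving out at least 1 array (adjusted p = 0.138, 0.053, 0.0662, 0.0591, 0.109 and 0.0568 in the order named, without WT −Fe replicate 1 for ZIP1 and without WT −Fe replicate 2 for the others).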

How the results depend on the processing

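For the 16 results on IRT1, IRT2 and the counts of called probe sets, 234 alternative values were computed, and 218 were kept. A change was kept if it stayed on its side of the threshold, with its direction where either value was called. Counts were kept within 1.5 times. All values of IRT1 and IRT2 were among the 218. Changes that were not called could still switch sign. IRT2 in uri gave −0.05 without uri +Fe replicate 2, against 0.17 with all arrays. For uri +Fe minus WT +Fe, leaving out WT +Fe replicate 1 gave −0.10 for IRT1 and −0.13 for IRT2. With 1 array left out the IRT1 change lay between 4.22 and 4.74 in uri and between 6.31 and 6.83 in WT. The IRT2 change lay between −0.05 and 0.40 in uri and between 2.11 and 2.76 in WT. The interaction lay between −2.35 and −1.83 for IRT1 and between −2.59 and −1.93 for IRT2. The 16 that moved were counts of called probe sets. With 1 array left out the count of called probe sets lay between 435 and 1729 for iron deficiency in WT (1285 with all arrays), between 3609 and 6833 for uri against WT without iron (6057), between 179 and 1379 for uri against WT with iron (709) and between 2849 and 4937 for the interaction (4637). For uri against WT with iron the count was 295 with the compared groups alone and 1112 with an intensity trend. The difference of replicate 1 minus replicate 2, over all probe sets, correlated between groups at −0.2232 to 0.1551 over 6 pairs of groups. Whether the replicate numbers pair the samples was not tested. A replicate block left the changes of IRT1 and IRT2 as they were and gave interaction adjusted p of 0.000513 and 0.000535, with 4376 probe sets called. Of 666 alternative list counts 35 moved. Among 4726 alternative values of other named genes 82 lost a call, 51 gained one and 0 reversed a called change. The causes were not tested. Where leaving out an array left 1 in a group, that array was assumed to vary like the other groups. The +Fe levels of IRT1 lay near the lower quartile of all probe sets, and an offset of 32 units lowered its changes to 3.74 in uri and 5.73 in WT without ending a call.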

Other observations

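IRT1 and IRT2 differed in the same direction between the 2 replicates of every group. Replicate 1 minus replicate 2 was 0.52 for IRT1 and 0.35 for IRT2 on the log2 scale in uri −Fe, −0.08 and −0.20 in WT −Fe, 0.29 and 0.45 in uri +Fe, and −0.52 and −0.66 in WT +Fe, so the sign was shared in 4 of 4 groups. The WT −Fe pair was the tightest for both genes. This is a description of 4 pairs of arrays and was not tested.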
